A study of Mus musculus with 57 samples.

Results

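Colon tumors of mice that lack the insulin receptor in the intestinal epithelium were compared with tumors of mice that carry the receptor gene flanked by loxP sites. The comparison covered 17 of the 57 arrays of the series, 9 from villin-CRE-INSR-/- tumors (knockout here) and 8 from INSRfl/fl tumors (fl/fl here), and every one of the 22180 genes that a probe set with a single symbol measures. Villin-Cre expresses the recombinase in intestinal epithelial cells, so stroma, muscle and immune cells of a knockout tumor keep the intact gene. All mice were C57BL/6 of 18 to 24 weeks, and the treatment protocol names females. Both tumor groups had received azoxymethane (AOM), a colon carcinogen, as 7.4 mg/kg, and 3% dextran sulfate sodium (DSS), which injures the colon epithelium, for 7 days in week 2, with tissue taken in week 5. The colon groups used for reference were untreated colon (10 fl/fl and 10 knockout) and non-tumor colon after the same AOM+DSS treatment (10 and 10). The labels do not say whether tumors came from separate mice, so p-values measure a spread between samples. Except in the permutation tests and the fits on compared groups alone, that spread was estimated within all 6 groups together, colon included. It also sets each SE.

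The insulin receptor is a receptor tyrosine kinase that, on binding insulin, recruits the docking proteins Irs1 and Irs2 and activates PI3 kinase and Akt. Akt keeps FoxO transcription factors out of the nucleus and raises mTOR activity. The related receptor Igf1r uses the same docking proteins and can form hybrids with the insulin receptor. Colon tumors of the AOM+DSS model typically carry active Wnt signalling. In these arrays the lowest tumor exceeded the highest of the colon samples for the Wnt-associated genes Notum (10.15 against 6.02), Wif1 (11.83 against 8.35), Prox1, Nkd1 and Axin2, on the log2 scale. The tumor array medians lay between 5.92 and 6.02, and the lowest mean correlation of a tumor with its own group was 0.980. The number of arrays limits the precision of every value below.

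Insr, the targeted gene, was lower in the knockout tumors. Its log2 level had a lowest value of 7.17, a median of 7.38 and a highest value of 8.35 in the knockout tumors, against 7.70, 8.20 and 8.50 in the fl/fl tumors. The groups overlapped, although 7 of the 9 knockout tumors lay below every fl/fl tumor. The means were 7.53 ± 0.36 (SD, n = 9) and 8.18 ± 0.23 (SD, n = 8). The difference of -0.65 ± 0.11 (log2, SE) left 63.6% of the fl/fl level (limma adjusted p = 0.00234; two-sided exact permutation p = 0.00169). Of all genes tested, 0.00902% were called lower in the knockout tumors and 0% higher at an adjusted p under 0.05. Array weights ended the Insr call (adjusted p = 0.087), and so did a fit on the 17 tumors alone, where the unadjusted p was 0.000148 and the adjusted p 0.9999.

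The tumor labelled knockout replicate 8 carried an Insr level of 8.35, above the fl/fl mean, which goes against its label. Without it the knockout mean was 7.43 ± 0.21 (SD, n = 8), the difference was -0.755 and the remaining level was 59.3%. Leaving out knockout replicate 6 as well, whose value was 7.79, gave a difference of -0.806 and 57.2% of the fl/fl level. Leaving out the highest knockout values enlarges the difference in advance, so these omissions are no further test of it. Which part of Insr the probe set covers is not given by the probe table. In a bulk sample, less Insr per epithelial cell and fewer epithelial cells cannot be told apart. The mean of 14 epithelial marker genes was 10.99 in the tumor labelled knockout replicate 8 and lay between 10.63 and 11.14 in the knockout tumors, against 10.79 to 11.20 in the fl/fl tumors. With that mean as a covariate the Insr difference was -0.61 (adjusted p = 0.00467).

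**Figure D1:**
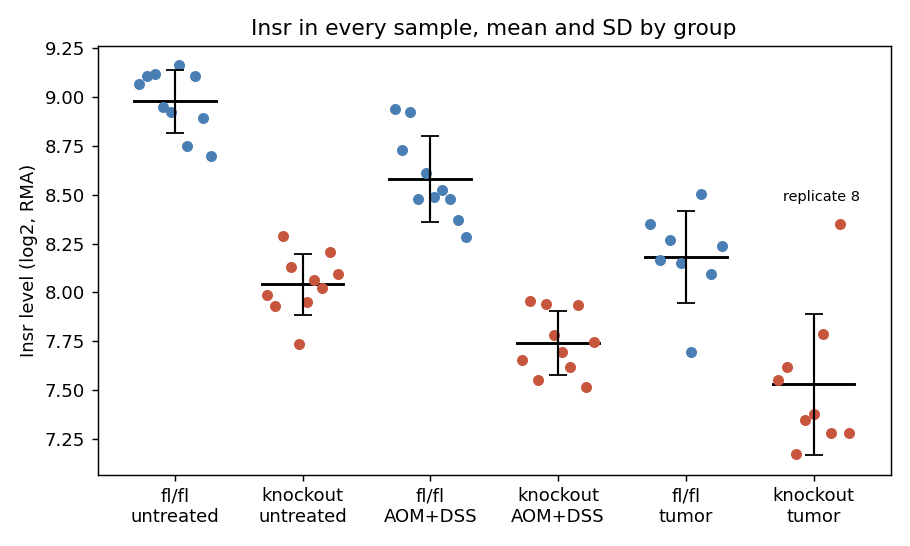
Log2 level of Insr (vertical axis) in every sample of the 6 groups, with the group mean as a bar and the SD as whiskers. In the colon the genotypes are separate, while among the tumors the one labelled knockout replicate 8, at 8.35, sits among the fl/fl samples.

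The genotype difference of Insr was -0.94 in untreated colon and -0.84 in AOM+DSS colon, against -0.65 in the tumors. The difference between differences was 0.28 ± 0.15 against untreated colon and 0.19 ± 0.15 against AOM+DSS colon (SE), and neither passed (unadjusted p = 0.0571 and 0.201; adjusted 0.999 and 0.856). Fl/fl tumors had a lower level than fl/fl colon, 8.18 against 8.98 ± 0.16 in untreated colon and 8.58 ± 0.22 in AOM+DSS colon (SD, n = 10 each). The nearest genes to Insr in the gene order of assembly GRCm38.p6, Arhgef18 and Pex11g, differed by -0.06 ± 0.07 and 0.0031 ± 0.060 (SE) in tumors. The next, Tex45, differed by -0.20 ± 0.06 and did not pass (unadjusted p = 0.00232; adjusted 0.863).

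Transcripts of the other receptors and docking proteins of the pathway did not pass the test. Igf1r ranged from 7.61 to 8.38 with a median of 8.03 in knockout tumors and from 7.56 to 8.39 with a median of 8.13 in fl/fl tumors. The ranges nearly coincided, and the difference was -0.07 ± 0.10 (SE), with a 95% interval from -0.27 to 0.13. Irs1 differed by -0.05 ± 0.09 and Irs2 by -0.05 ± 0.15 (SE). The sign of the Irs2 value changed in 3 of the alternative fits, in which it stayed near 0. Fits that left out a single tumor were not searched for that sign. In untreated and AOM+DSS colon the same comparison for Igf1r gave 0.26 and 0.22, and the tumor difference was lower by 0.32 ± 0.14 and 0.28 ± 0.14 (SE; adjusted p = 0.999 and 0.734).

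Of the 20 measured genes of the insulin signalling list, 1 passed the test, Insr itself. The median difference of the list was -0.05 against -0.0069 for all genes, with 5 members higher and 15 lower, and ran from -0.07 to -0.02 with single tumors left out. Grb10, an adaptor that binds the insulin receptor and dampens its signal, had values of 6.50, 7.10 and 7.76 (lowest, median, highest) in knockout tumors and 7.18, 7.44 and 7.92 in fl/fl tumors. The ranges overlapped, with 6 knockout tumors below every fl/fl tumor. The Grb10 difference of -0.38 ± 0.11 (SE) did not pass (unadjusted p = 0.00124; adjusted 0.731). Socs3, a feedback inhibitor of cytokine and insulin receptors, differed by 0.32 ± 0.17 (SE; unadjusted p = 0.0598).

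None of the 32 measured FoxO and Akt-mTOR target genes reached even an unadjusted p under 0.05, a level reached by 1.72% of all genes in the higher direction and 2.74% in the lower. Their differences lay between -0.14 and 0.12, with a median of -0.03 that ran from -0.05 to -0.01 with single tumors left out. Sod2, a mitochondrial antioxidant enzyme, differed by 0.12 ± 0.06, and Cdkn1a, a cell cycle inhibitor, by -0.13 ± 0.08 (SE). The 13 IGF ligands and binding proteins had a median of -0.03 and 0 members past that level. Igf1, a ligand of Igf1r made largely by stroma, had the smallest p among them, with a difference of 0.21 ± 0.13 (SE).

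Promoter sequence was set beside these values because FoxO factors bind a known core. RefSeq windows of 300 bases around each gene's start (250 bases before it to 50 after, build GRCm38.p6) were searched for TGTTTAC and, on the other strand, GTAAACA. Some genes have several windows. The core was in 3.65% of all 32851 windows. Counted by gene, it was in 3.54% of the 16990 measured genes with a window and in 5 of the 27 list members with one. The stretches around the core in those 5 are printed to show which list members carry it. Capitals mark the core, each stretch is on the plus strand, and its position follows the gene name.
Bbc3, chr7:16310084-16310110: ctggcgggttTGTTTACaaacaatggg
Bcl2l11, chr2:128125801-128125827: agacactaggGTAAACAcgccggggtg
Sesn1, chr10:41810586-41810612: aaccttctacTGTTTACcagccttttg
Trim63, chr4:134314916-134314942: agtctgttctTGTTTACgacccccacg
Txnip, chr3:96557826-96557852: tggaggcctgGTAAACAagggccaagt

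Bbc3 and Bcl2l11, which promote apoptosis, differed between the tumor genotypes by -0.13 ± 0.09 and 0.02 ± 0.11 (SE). Sesn1, a stress-induced inhibitor of mTOR signalling, differed by -0.08 ± 0.10, Trim63, a ubiquitin ligase known from muscle, by -0.11 ± 0.10, and Txnip, an inhibitor of glucose uptake, by -0.07 ± 0.08. None passed. Among the measured genes, the 602 with the core had a median difference of -0.010 and the rest of -0.0059. A match to the core is a description of the letters in that window.

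The other gene that passed was Gm17250, a long noncoding transcript of a predicted gene model. Such models fall outside the rule for named genes, and it was chosen after its values were seen. Gm17250 had log2 values of 5.47, 5.76 and 7.20 (lowest, median, highest) in knockout tumors and 6.15, 6.56 and 7.48 in fl/fl tumors. All knockout tumors but replicate 6, at 7.20, lay below every fl/fl tumor. Its difference was -0.80 ± 0.16 (SE), or 57.4% of the fl/fl level (adjusted p = 0.0442; exact permutation p = 0.00658). In untreated and AOM+DSS colon the genotypes differed by -0.01 and 0.05, and the difference between differences did not pass (adjusted p = 0.743 and 0.29).

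The call of Gm17250 was close to the threshold. It held in 6 of the 17 fits that left out a single tumor and was lost without fl/fl replicate 4, 5, 7 or 8 or knockout replicate 1, 2, 3, 4, 5, 8 or 9 (adjusted p up to 0.276). The highest fl/fl value belonged to replicate 4 and the highest knockout value to replicate 6, and the same samples had the highest means of 16 squamous epithelium genes, 8.48 and 8.28, where the other tumors lay between 5.82 and 7.14. Without both samples the adjusted p of Gm17250 was 0.00019. That omission was chosen after the values were seen and takes out the knockout tumor that overlapped the fl/fl tumors, so it is no further test. With the squamous mean as a covariate the adjusted p was 0.0294. The call was lost with the smooth muscle mean (adjusted p = 0.0807) or the B and T cell mean (0.0535) as a covariate and in the fit on the tumors alone (0.9999). The genes beside it in the same assembly's order, Platr26 and Itga6, differed by -0.07 ± 0.10 and -0.0035 ± 0.073 (SE).

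Beyond these 2 genes no transcript passed. At an unadjusted p under 0.05, 382 genes were higher and 608 lower in the knockout tumors, together 4.46% of those tested. The 95% interval of the genotype difference lay within 0.5 of 0 on the log2 scale for 20918 genes (94.3%) and within 1 for 22030 (99.3%). The median SE was 0.088, and the median SD of a gene within a group was 0.181 in fl/fl and 0.180 in knockout tumors. A difference of at least 0.5 in size was found for 66 genes and of at least 1 for 3. Those 3 were an immunoglobulin segment and the Paneth-cell defensins Defa22 (1.69 ± 0.97) and Defa21 (1.53 ± 0.84; SE), with unadjusted p of 0.0859 and 0.0726. Defa22 ran from 3.65 to 11.61 in knockout tumors and from 4.08 to 10.69 in fl/fl tumors, with medians of 4.49 and 4.36, so the medians lay far closer than the means.

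**Figure D2:**
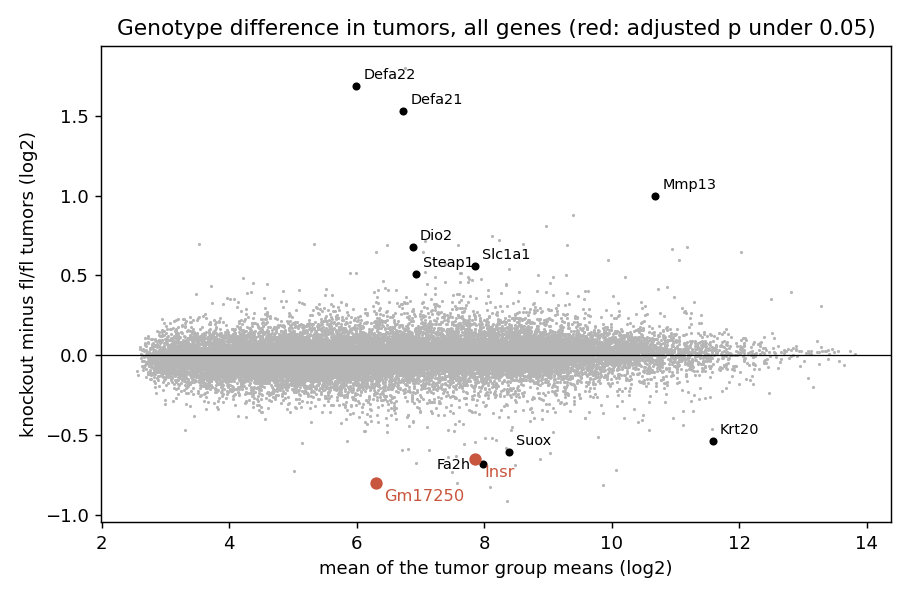
Knockout minus fl/fl difference in tumors (vertical axis, log2) against the mean level of the gene in both tumor groups (horizontal axis, log2), 1 point per gene. Most points lie within 0.5 of 0, and the red points, Insr at -0.65 and Gm17250 at -0.80, are those with an adjusted p under 0.05.

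Among genes with the smallest p in the higher direction, none passed. Steap1, a membrane protein of the cell surface, had values of 6.67, 7.33 and 7.55 (lowest, median, highest) in knockout tumors and 6.23, 6.68 and 7.23 in fl/fl tumors. Of the knockout tumors 5 exceeded every fl/fl tumor, and the difference was 0.51 ± 0.12 (SE; adjusted p = 0.299). Its relative Steap2 differed by 0.30 ± 0.09 (adjusted p = 0.854). Slc1a1, a glutamate and cysteine transporter, had 7.56, 8.00 and 8.99 against 7.03, 7.59 and 8.02, a difference of 0.56 ± 0.13 (adjusted p = 0.312), with 4 knockout tumors above all fl/fl tumors. Tmlhe, an enzyme of carnitine synthesis, differed by 0.48 ± 0.12 (adjusted p = 0.42). Without fl/fl replicate 6, Steap1 and Tmlhe were called, the only genes called higher in any of the fits run.

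Dio2, which activates thyroid hormone, and Mmp13, a collagenase, had wider spreads. Dio2 had values of 6.44, 7.30 and 7.92 in knockout tumors and 5.58, 6.45 and 7.60 in fl/fl tumors, a difference of 0.68 ± 0.19 (adjusted p = 0.633). Mmp13 had 10.16, 11.44 and 11.97 against 8.78, 10.05 and 11.78, and its difference of 0.99 ± 0.29 did not pass (adjusted p = 0.731). The Mmp13 ranges overlapped over most of their length. In AOM+DSS colon the genotype differences of Dio2 and Mmp13 were 0.41 ± 0.17 and 0.74 ± 0.26, of the same sign and also not passing. In untreated colon they were -0.16 ± 0.17 and 0.22 ± 0.26, for Dio2 the opposite sign. Other matrix proteases, chosen after their values were seen, were Mmp10 at 0.66 ± 0.24 and Mmp3 at 0.69 ± 0.29, while Mmp7 was at -0.06 ± 0.27 (SE).

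The remaining genes of the 15 with the smallest p in the higher direction were Fbxw21, Pabpc4, Pirt, Mob1a, Eri2, Bard1, Ybx3, Nup37 and Nsl1, with differences from 0.15 for Ybx3 to 0.38 for Fbxw21. Pabpc4 binds the poly(A) tail of mRNA, Mob1a is a Hippo pathway adaptor, Nup37 is a nuclear pore component and Nsl1 a kinetochore component. Nsl1 had 6 knockout tumors above every fl/fl tumor and a difference of 0.33 ± 0.10 (adjusted p = 0.863). Fbxw21 lay at the dim end of the scale, with values from 3.10 to 4.01 over both groups.

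Among genes with the smallest p in the lower direction, none passed other than Insr and Gm17250. Krt20, a keratin of differentiated colonocytes, had values of 10.57, 11.37 and 12.03 (lowest, median, highest) in knockout tumors and 11.41, 11.89 and 12.47 in fl/fl tumors. The groups overlapped, with 5 knockout tumors below every fl/fl tumor, and the difference was -0.54 ± 0.13 (SE; adjusted p = 0.355). Fa2h, which hydroxylates fatty acids of sphingolipids, had 6.92, 7.59 and 8.18 against 7.80, 8.12 and 9.39, a difference of -0.68 ± 0.17 (adjusted p = 0.355). Suox, the mitochondrial sulfite oxidase, had 7.76, 7.98 and 8.55 against 8.20, 8.57 and 9.55. Of its knockout values 7 lay below every fl/fl value, and the difference was -0.61 ± 0.14 (adjusted p = 0.22).

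Mxd1, a Myc antagonist of differentiating cells, differed by -0.35 ± 0.09 (adjusted p = 0.494), and Ephx1, a microsomal epoxide hydrolase, by -0.40 ± 0.11 (adjusted p = 0.731). Pmp22, a tetraspan membrane protein, differed by -0.35 ± 0.10, and Acap2, an Arf6 regulator, by -0.26 ± 0.07. Tafa2, a secreted peptide, was dim, from 4.55 to 4.81 in knockout and from 4.80 to 5.23 in fl/fl tumors, a near separation that amounted to -0.30 ± 0.07 (adjusted p = 0.22). Chic1, Camk2d, Ica1l, Rnf217, Efhc2 and Teddm1b completed the 15, with differences from -0.48 for Chic1 to -0.25 for Teddm1b. Chic1 was called without fl/fl replicate 1, and in no other fit run.

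**Figure D3:**
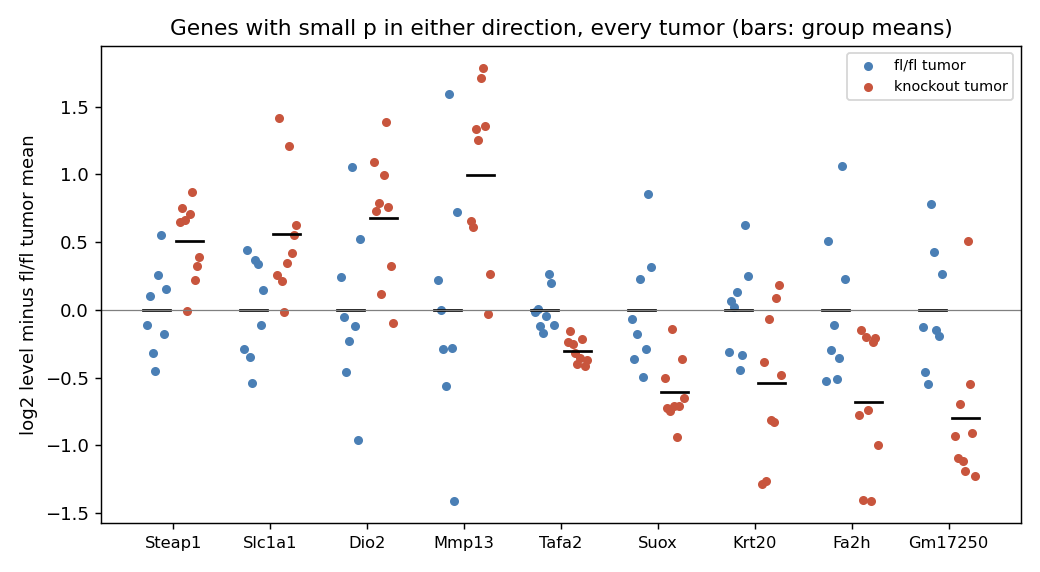
Log2 level minus the fl/fl tumor mean (vertical axis) in every fl/fl (blue) and knockout (red) tumor for 8 genes with small p that did not pass and for Gm17250, with group means as bars. The groups overlap for every gene shown, and Tafa2 is the nearest to a separation.

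Genes of dividing cells lay higher in the knockout tumors without any that passed. All 24 measured members of the proliferation and mitosis list had a positive difference, between 0.011 and 0.37, where 46.7% of all genes did, and the list median was 0.20. The mean of the list was 8.79, 9.02 and 9.20 (lowest, median, highest) in knockout tumors and 8.57, 8.82 and 9.08 in fl/fl tumors. The groups overlapped on that mean. An unadjusted p under 0.05 was reached by 2 members, Bub1, a spindle checkpoint kinase (0.37 ± 0.18), and Kif11, a spindle motor (0.31 ± 0.15; SE). Of all genes 1.72% reached it in the higher direction. Top2a and Plk1 differed by 0.27 ± 0.15 and 0.25 ± 0.13. In the fit on tumors alone, where colon samples do not enter the spread, 12 of the 24 reached that level, as did 832 genes in all. Array weights left 0 of the 24 at that level, and so did leaving out fl/fl replicate 4 and knockout replicate 6. Without knockout replicates 6 and 8 there were 3.

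The members share the 17 tumors, so their common sign is not 24 separate observations. The list median was 0.17 in AOM+DSS colon and 0.03 in untreated colon. In every alternative fit for the tumors the list median stayed between 0.15 and 0.24, with at least 23 members positive. The mean of the smooth muscle list ran from 8.24 to 9.69 in knockout and from 8.67 to 9.70 in fl/fl tumors, and with it as a covariate the proliferation median was 0.17 with 0 members at an unadjusted p under 0.05. With the epithelial mean as a covariate the median was 0.20.

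Differentiated epithelial lists pointed the other way. Of all genes, 46.7% were higher, and 2.74% were lower at an unadjusted p under 0.05. The surface colonocyte list had a median of -0.16, with 14 of 22 members lower and 5 at an unadjusted p under 0.05, all lower: Krt20, Slc9a2, a sodium-proton exchanger (-0.53 ± 0.16), Car1, a carbonic anhydrase (-0.46 ± 0.16), Emp1 (-0.44 ± 0.19; SE) and Car2. The list mean ran from 7.90 to 9.43 in knockout and from 8.27 to 9.81 in fl/fl tumors, ranges that overlap over most of their length. With single tumors left out the list median ran from -0.22 (without fl/fl replicate 5) to -0.06. With the epithelial mean as a covariate the surface colonocyte median was -0.03, and without fl/fl replicate 4 and knockout replicate 6 it was -0.07. That omission left 2 members at an unadjusted p under 0.05, and so did the fit on tumors alone. Array weights left 3 lower and 1 higher at that level. The goblet cell list had 14 of 16 members lower, a median of -0.15 and 0 members at that level. Its median was -0.03 with the epithelial covariate and from -0.22 to -0.06 with single tumors left out. Muc2, the main colonic mucin, differed by -0.14 ± 0.09 (SE). Of the 14 general epithelial markers 13 were lower, with a median of -0.07 (-0.10 to -0.04 with single tumors left out), and Krt8 was at -0.13 ± 0.06 (unadjusted p = 0.0337). In the fit on tumors alone 0 of the 14 reached an unadjusted p under 0.05.

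Wnt target genes, which set tumors apart from colon, were near even between genotypes. The list's median was 0.03, with 15 of 23 members higher, and ran from -0.01 without fl/fl replicate 7 to 0.10 without fl/fl replicate 1. Ascl2, a stem cell transcription factor, differed by 0.28 ± 0.13 and Bmp4 by 0.33 ± 0.15 (unadjusted p = 0.0298 and 0.0326). Myc differed by 0.16 ± 0.10 and Rnf43, a membrane feedback inhibitor of Wnt receptors, by 0.13 ± 0.09 (SE). The intestinal stem cell list, which holds Ascl2 and Rnf43 as well, had a median of 0.10 with 10 of 14 members higher, and medians from 0.06 to 0.14 with single tumors left out.

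The list of inflammatory cytokines and chemokines had a median of 0.20, with 19 of 25 members higher and 5 at an unadjusted p under 0.05, all higher. Of all genes, 46.7% were higher, and 1.72% were higher at that level. Il11, a stromal cytokine of the Il6 family, had values of 6.00, 7.25 and 8.79 in knockout and 5.44, 6.72 and 8.36 in fl/fl tumors, a difference of 0.65 ± 0.27 (SE). Il6 differed by 0.48 ± 0.22, Lif by 0.20 ± 0.09, Osm by 0.25 ± 0.12 and Il33, an epithelial and stromal alarmin, by 0.39 ± 0.19. No adjusted p among them passed, and the groups overlapped for Il11, Il6, Lif, Osm and Il33. With the epithelial mean as a covariate the list median was 0.11, with 1 member higher and 1 lower at an unadjusted p under 0.05. Array weights left 0 members at that level and the fit on tumors alone 2. The neutrophil list had a median of 0.23 with 12 of 16 members higher and 0 at that level; its mean ran from 6.71 to 8.18 in knockout and from 6.11 to 7.91 in fl/fl tumors. The neutrophil median was 0.10 with the epithelial covariate and ran from 0.11 to 0.31 (without knockout replicate 4) with single tumors left out. The part of neutrophil number in the cytokine values was not tested.

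**Figure D4:**
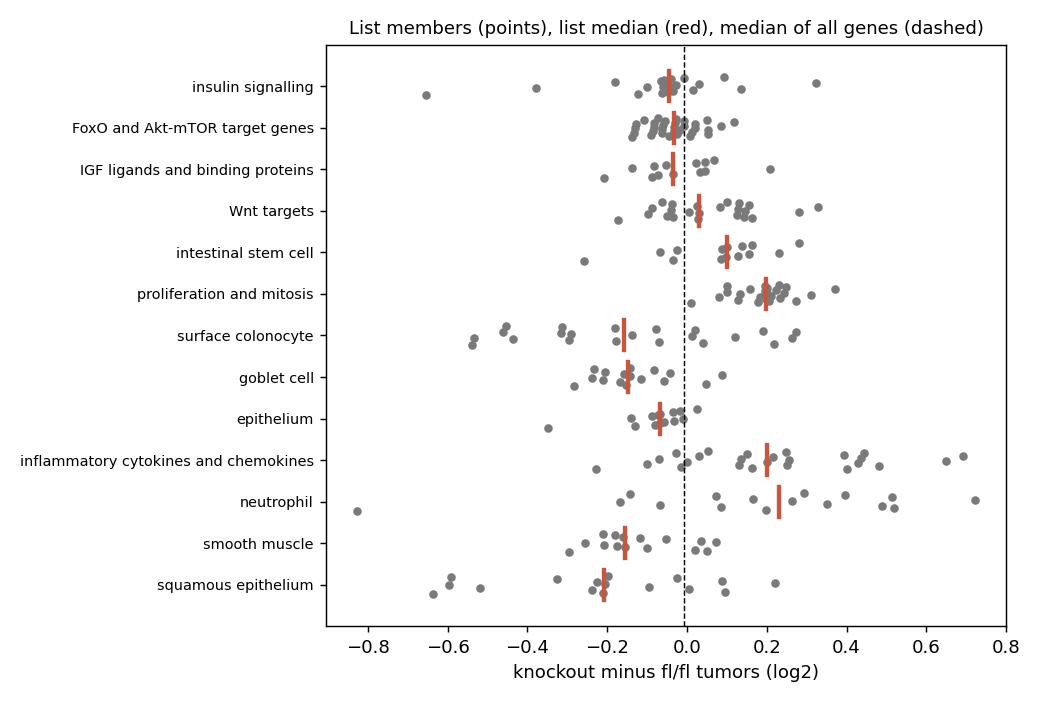
Knockout minus fl/fl difference in tumors (horizontal axis, log2) of each measured member of 13 gene lists, with list medians in red and the median of all genes dashed. The proliferation list lies wholly to the right of 0 with a median of 0.20, and the FoxO list lies between -0.14 and 0.12.

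Of the metabolic genes on the lists none passed. Glycolysis (17 genes), oxidative phosphorylation (22) and fatty acid and sterol synthesis (20) had medians of -0.02, 0.02 and -0.03, each with 0 members at an unadjusted p under 0.05. Fatty acid oxidation and ketogenesis had a median of -0.06 over 21 genes, and its members Pparg (-0.33 ± 0.13) and Creb3l3 (-0.33 ± 0.13) reached that level. In the xenobiotic and glutathione list (23 genes, median -0.11) it was reached by Gsta4 (-0.41 ± 0.16), Nqo1 (-0.37 ± 0.15) and Gstt1 (-0.21 ± 0.09; SE), enzymes that conjugate or reduce toxic compounds. The median of that list was -0.0055 without fl/fl replicate 6 and -0.17 without knockout replicate 7, and the fatty acid oxidation median was -0.01 without fl/fl replicate 6. Gsta4 had 8 of 9 knockout tumors below every fl/fl tumor. Cytosolic ribosomal protein genes had a median of 0.0060 over 19 genes.

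Lists of the other cells a tumor holds had no member that passed. Medians were -0.02 for fibroblasts, -0.0011 for endothelium, 0.04 for B cells, 0.04 for T cells, 0.03 for macrophages, 0.14 for mast cells and -0.16 for smooth muscle. Single tumors moved these values: the medians with 1 tumor left out ran from 0.02 (without knockout replicate 1) to 0.26 (without fl/fl replicate 8) for mast cells and from -0.25 (without knockout replicate 4) to -0.03 for smooth muscle. For fibroblasts they ran from -0.09 to 0.03, for endothelium from -0.06 to 0.03 and for macrophages from -0.00096 to 0.08. All 9 plasma cell genes were positive, with a median of 0.14 and 0 at an unadjusted p under 0.05. The plasma cell median was 0.06 without fl/fl replicate 8, and without fl/fl replicate 4 and knockout replicate 6 it was 0.07 with 6 of 9 members positive. Type I interferon response genes had a median of -0.11, with 14 of 17 lower and Oasl1 and Ifit2 at that level, and a median of -0.25 without fl/fl replicate 5 and -0.03 without knockout replicate 5. Of the tight junction genes, Cldn8, a barrier-forming claudin of the distal colon, differed by 0.49 ± 0.18 (SE; unadjusted p = 0.00682).

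Genotype differences in the tumors were set against those in non-tumor AOM+DSS colon, which share no array with them. The labels do not say whether tumor and colon samples came from the same mice, and the fit treated them as separate. In AOM+DSS colon 93 genes were called higher (0.419%) and 27 lower (0.122%) in knockout samples, and in untreated colon 0 higher (0%) and 1 lower (0.00451%), Insr. Of all genes, 46.7% were higher in the knockout tumors. Of the 93, 58 were higher and 35 lower there, with a median of 0.02 in tumors against 0.44 in the colon in which they were chosen. Of the 27, 19 were lower, Insr among them, and 8 higher, with medians of -0.05 and -0.50. Insr was the only one of these 120 genes to pass in tumors. Among those called higher in colon, Il5ra, the interleukin 5 receptor of eosinophils, and Prrg1 were negative in tumors, at -0.36 ± 0.15 and -0.25 ± 0.11 (SE; unadjusted p = 0.0237 and 0.0239).

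The B cell list, with a median genotype difference of 0.60 in AOM+DSS colon, was at 0.04 in tumors, and the T cell list had 0.32 and 0.04. The genotypes overlapped in that colon as well. The B cell list mean ran from 7.62 to 8.29 in knockout and from 5.86 to 8.46 in fl/fl samples. The T cell list mean ran from 6.76 to 7.41 and from 6.33 to 7.09. The tumor value of the B cell list moved to 0.22 without fl/fl replicate 3, whose B cell mean stood apart, and leaving out other single tumors gave values down to -0.06. For the T cell list single omissions gave -0.02 to 0.08. The difference between colon and tumor was not tested for either list. No gene passed the test of the difference between tumor and AOM+DSS colon differences (0% of genes; smallest adjusted p = 0.186), where 1470 genes (6.63%) had an unadjusted p under 0.05. Against untreated colon 0% passed as well (smallest adjusted p = 0.191), with 983 (4.43%) at that level. In this main fit a genotype effect that differs between tumor and colon was therefore not shown for any single gene. Some alternative fits that kept all tumors called 1 gene. Against AOM+DSS colon it was Ica1l in the compared groups alone (adjusted p = 0.0208) and Prrg1 with the replicate number as a block (0.0464). Against untreated colon it was Gsta4 with the squamous mean as a covariate (adjusted p = 0.00495). Leaving out 1 tumor changed the counts of the main fit in 3 cases. Without the tumor labelled knockout replicate 8, Clca4a (-1.73 ± 0.32) and Ly6m (-1.93 ± 0.35; SE) passed against untreated colon, and without knockout replicate 4 Ly6m did. Without knockout replicate 6, Gm17250 passed against both kinds of colon (-0.96 ± 0.18 against untreated and -1.01 ± 0.18 against AOM+DSS colon; SE). These genes were named after their values were seen.

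**Figure D5:**
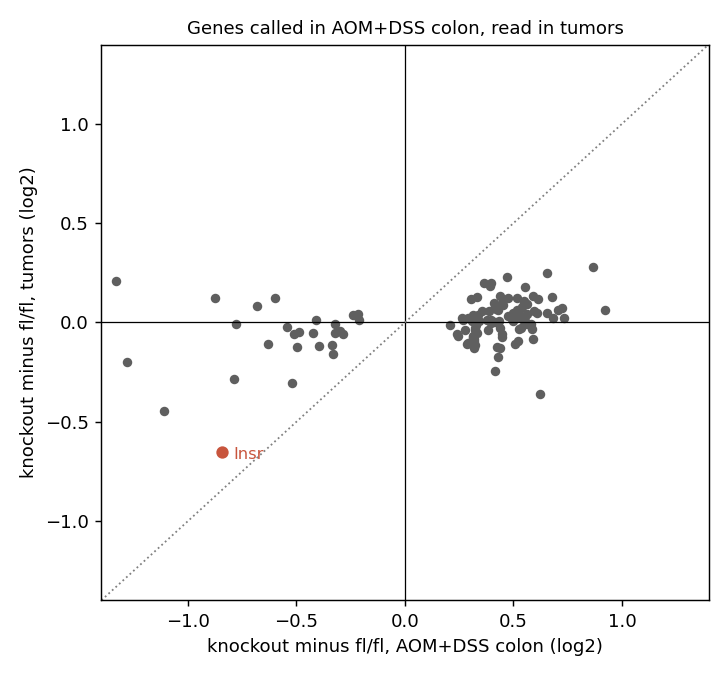
Knockout minus fl/fl difference in tumors (vertical axis, log2) against that in AOM+DSS colon (horizontal axis, log2) for the 120 genes called in AOM+DSS colon, with the line of equality dotted. Genes with colon medians of 0.44 and -0.50 lie around 0 in tumors, and Insr in red, at -0.65, is the exception that passed there.

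Some genes ran over a wide range among tumors of 1 genotype. The genes named here were picked as those with the largest SD in a tumor group. Krt6a, a keratin of squamous epithelium, ran from 5.01 to 11.04 in knockout and from 5.16 to 11.10 in fl/fl tumors, and Ppbp, a platelet chemokine, from 7.03 to 12.64 among knockout tumors. Ltf, the lactoferrin of neutrophil granules, ran from 5.90 to 11.85 and Psca, a surface protein of stratified epithelium, from 5.51 to 12.49 among fl/fl tumors. Hoxd13, a gene of the most distal colon, was at 5.64 in the lowest and 10.66 in the highest fl/fl tumor. Knockout replicate 6 also had the highest mean of the fibroblast list among knockout tumors, 10.10, and the lowest of the epithelial list, 10.63.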

How the data were processed

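The deposited values are log2 expression values from Affymetrix whole-transcript arrays, made by the authors with RMA per the submitters' processing notes; the software version is not given in the sources used here. RMA quantile-normalizes the arrays, so a shift of all transcripts cannot be seen, and it compresses differences of dim transcripts. Of 41345 probe sets, 23521 carry a single symbol in the platform's probe table; 1814 with several symbols and 16010 without a name were not used. The brightest probe set per gene was kept (1082 genes had more than 1), and no dim gene was removed.

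With limma 3.58.1, 1 mean per group (6 groups, all 57 arrays) was fitted in R 4.3.3 (lmFit, contrasts.fit, eBayes; 51 residual degrees of freedom). Two-sided p-values were adjusted by Benjamini-Hochberg across 22180 genes, and 0.05 was the threshold. The exact permutation tests used all 24310 arrangements of the tumors. The fit was tested on simulated arrays. Genes named were Insr, Igf1r, Irs1 and Irs2, those that passed, the 15 with the smallest p in each direction, up to 4 members of a list by smallest p and up to 5 genes with the largest SD per tumor genotype. Exceptions are stated beside their values, and further list members are named where the count they belong to is 5 or fewer. Predicted models and antigen receptor segments were counted. The members and the 40 gene lists (723 entries, 658 measured) were chosen with earlier results of these data known.

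Alternatives were a shift to 1 array median, a second quantile normalization, genes above the median level alone, averaged probe sets, robust eBayes with a trend, the compared groups alone, array weights, the replicate number as a block, samples left out, and the smooth muscle, B and T cell, squamous or epithelium list mean as a covariate. Values were also searched for samples far from their group with Dixon's criterion.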

Additional observations from a re-analysis of the deposited data

Results flagged for a closer look

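Of 148 sets of values searched, each 1 gene or list mean in 1 tumor group, 7 held a sample far from the others of its group by Dixon's criterion, which chance meets in about 1 of 20 sets. Knockout replicate 6 stood apart in 3 of them, with Gm17250 at 7.20 (the next knockout tumor was at 6.15), the squamous epithelium list mean at 8.28 (next 6.73) and the goblet cell list mean at 9.41, the lowest (next 9.88). Fl/fl replicate 6 stood apart in 3, with Ephx1 at 9.81 (next 9.14), the FoxO and Akt-mTOR target mean at 8.23 (next 8.15) and the small-intestinal transcript mean at 8.74 (next 7.39). In fl/fl replicate 3 the B cell list mean was 7.58, where the next fl/fl tumor was at 5.97.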

How the results depend on the processing

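The Insr difference kept its sign in all 31 alternative fits and its call in 29, losing it with array weights (-0.59) and in the compared groups alone (-0.65); without single tumors it lay between -0.755 and -0.61. The count of genes called lower was 0 in the compared groups alone and 1 with the brighter genes alone (those above the median level), array weights, the replicate block, and the smooth muscle or B and T cell covariate, and without single tumors it ranged from 1 to 3. The count called higher was 0 in every fit but the one without fl/fl replicate 6, which gave 2, so leaving out single tumors gave 0 to 2. Genes whose genotype difference differed from that in AOM+DSS colon numbered 1 in the compared groups alone (Ica1l), with the replicate block (Prrg1), without knockout replicates 6 and 8, and without fl/fl replicate 4 and knockout replicate 6, the last chosen after seeing the data (Gm17250 in both); single omissions gave 0 to 1. Against untreated colon there were 3 without knockout replicates 6 and 8 and 1 with the squamous covariate (Gsta4), and single omissions gave 0 to 2. Irs2 turned positive at 0.0045 without knockout replicates 6 and 8, 0.00062 with the epithelium covariate and 0.022 without fl/fl replicate 4 and knockout replicate 6. Its sign was not looked up in the fits that left out a single tumor. The cause of these shifts was not tested.

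Same-numbered tumors of the 2 genotypes correlated between -0.065 and 0.182 in their deviations from the group means, above 0.1 in 5 of 8 pairs. The same-numbered fl/fl tumor was the closest match in 0 of the 8. Same-numbered knockout tumor and AOM+DSS colon correlated between -0.165 and 0.330, above 0.1 in 3 of 9 pairs and closest in 2. For fl/fl the values were -0.071 to 0.233, above 0.1 in 1 of 8 pairs and closest in 0. Whether same-numbered samples share more than a number is not settled by these values. With the replicate block Insr differed by -0.64 and Gm17250 lost its call (adjusted p = 0.0877).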
